A study of Rattus norvegicus with 15 samples.

Results

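Histidine tRNA with the anticodon GTG gave 26 of the 714 tRNA-derived small RNAs (tsRNAs) measured in rat left ventricle. The members were the rows of the expression table whose name begins with tRF-His-GTG, out of 665 tRNA fragments (tRFs). They carry serial numbers between 4 and 54, and a serial number names a fragment without giving its position in the tRNA. Small RNA libraries were sequenced from left ventricles of 15 Sprague-Dawley rats, 1 rat per library by the labels, in 3 groups of 5. Control rats were untreated, the isoproterenol group had myocardial ischemia induced by isoproterenol, and the third group was placed on caloric restriction before isoproterenol. No group with caloric restriction alone was analysed here, and the labels state neither dose, timing, age nor sex.

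A transfer RNA carries an amino acid to the ribosome, and histidine tRNA reads the histidine codons of a messenger RNA. Cytosolic histidine tRNA is unusual in that an extra guanosine is added to its 5′ end after transcription, by the enzyme THG1L, and histidyl-tRNA synthetase recognises it. Nucleases cut tRNAs into tiRNAs, made by cleavage in the anticodon loop by enzymes such as angiogenin under stress, and into shorter tRFs, some of which bind Argonaute proteins. Isoproterenol is an agonist of beta-adrenergic receptors that injures the myocardium at high dose. The anticodon GTG is used by both the nuclear and the mitochondrial histidine tRNA, and the fragment names do not separate them. RefSeq annotation of the rat assembly GRCr8 names 10 genes for histidine tRNA with this anticodon, so a fragment may come from more than one gene. Fragments that share most of their bases could be split between names by the authors' counting, so single members are uncertain as separate molecules.

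The values are reads scaled to 1000000 reads of the library total (CPM). The totals recovered from them lay between 106082 and 1128887 reads, and a single read equalled between 0.886 and 9.43 CPM depending on the library. A typical tsRNA had few reads, with library medians between 4 and 9. The listed tsRNAs made up 28.6% ± 4.77 of the total in control, 61.6% ± 13.6 in isoproterenol and 50.4% ± 13.6 in caloric restriction plus isoproterenol libraries (SD, n = 5 each). A rise in CPM against control therefore stands beside a rise of the listed tsRNAs as a whole, and every comparison was also run after median-of-ratios scaling, which puts the typical tsRNA at a like level in every library. Markers of ventricular tissue were not analysed here.

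Summed over the 26 members, histidine fragments stood higher in both treated groups than in control. The control libraries held 2061, 1747, 1970.3, 931 and 1921 CPM. The isoproterenol libraries held 8029, 8954, 29364, 12593 and 18855 CPM, and the libraries of caloric restriction plus isoproterenol held 10603, 6215, 11029, 8921 and 14778 CPM. On this scale every treated library was above every control library, whereas the treated groups overlapped. After median-of-ratios scaling control replicate 4 (5305) lay above replicate 1 of the third group (4479). Group means were 1726 ± 459, 15559 ± 8812 and 10309 ± 3133 CPM (SD, n = 5 each). In bulk tissue, a change in the number of cells of a type and a change in RNA per cell cannot be told apart.

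The log2 ratio of the group means was 3.17 for isoproterenol against control, 2.58 for caloric restriction plus isoproterenol against control, and -0.59 between the treated groups. After median-of-ratios scaling these ratios were 1.96, 0.93 and -1.03. As a share of the listed tsRNA reads, the histidine fragments took 0.605% ± 0.153 in control, 2.76% ± 1.98 in isoproterenol and 2.29% ± 1.19 in caloric restriction plus isoproterenol (SD, n = 5 each). The summed rise was thus smaller, and in the same direction, on the scalings that take the other tsRNAs into account. Of the 26 members, between 18 and 21 had a read in a control library. In an isoproterenol library it was 22 to 26, and in a library of the third group 24 or 25. Members 037, 044, 047 and 048 had reads in treated libraries only. The same count over all listed tsRNAs is not given here, so these counts are not a trait of histidine fragments.

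The first comparison asked what isoproterenol ischemia changed, by limma on log2(CPM + 1) with Benjamini-Hochberg adjustment over the 707 tsRNAs tested and a threshold of 0.05. All 26 members passed the filter on low values. Members 037, 044, 047 and 048 had no control read, and 041 stayed below 1 CPM in control. Only treated libraries carried these through the filter, so their rises are not independent of it. Members 004, 020, 038 and 043, with a read in 3 control libraries each, also needed treated libraries to pass, so the same holds for them. Of the 26 members 20 rose, against 35.5% of all tsRNAs tested, and 3 fell, against 12.4% of all. The median log2 fold change was 2.82 over the members and 1.26 over all tsRNAs. After median-of-ratios scaling, which brought the median of all tsRNAs to 0.15, the median of the members was 2.13, with 17 members higher (16.1% of all) and 3 lower (19.6% of all). With the listed tsRNAs scaled to the same total, 14 were higher (14.0% of all) and 4 lower (16.9% of all), the rises of 004, 012, 022, 023, 044 and 052 being lost. DESeq2 called 16 higher (16.0% of all) and 3 lower (18.8% of all), the rises of 004, 022, 023 and 044 being lost. edgeR on the recovered reads tested 19 members and called 15 higher (53.6% of the 347 tsRNAs it tested) and 2 lower (14.4%), and with TMM scaling 12 higher (21.3%) and 2 lower (23.1%). The values of the 5 isoproterenol libraries lay wholly above those of control in 16 members (19.0% of all tsRNAs) and wholly below in 2 (8.49% of all).

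Fragments of aspartate, glycine and valine tRNAs were set beside them. By limma on CPM, the median log2 fold change for isoproterenol against control was 0.89 over 24 fragments of Asp-GTC, with 7 higher and 4 lower. It was 1.61 over 33 fragments of Gly-GCC, with 17 higher and 0 lower by limma, and 1.74 over 25 fragments of Val-CAC, with 13 higher and 0 lower. With median-of-ratios scaling the medians were 0.019 for Asp-GTC, with 5 higher and 6 lower, 0.65 for Gly-GCC, with 4 higher and 0 lower by limma, and 0.79 for Val-CAC, with 5 higher and 0 lower. The order of the parents depended on the fit: by edgeR the median was 3.41 over the 7 Asp-GTC fragments it tested and 3.26 over its 19 histidine members, and with TMM scaling 2.16 and 1.81. By edgeR the share of tested fragments called higher was 78.9% for histidine, 71.4% for Asp-GTC, 70.6% for Gly-GCC and 73.3% for Val-CAC. With TMM scaling these shares were 63.2%, 57.1%, 17.6% and 26.7%. In the third group, limma on CPM gave 76.9%, 37.5%, 75.8% and 60.0%, in the same order. There edgeR gave 84.2%, 71.4%, 70.6% and 86.7%, and limma with median-of-ratios scaling 53.8%, 20.8%, 15.2% and 12.0%. These counts and shares are descriptions, and the difference between parent tRNAs was not tested.

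By limma, tRF-His-GTG-043 had the highest log2 fold change of the 707 tsRNAs tested, both in isoproterenol and in caloric restriction plus isoproterenol against control. It was read 0, 1, 3, 0 and 3 times in the control libraries, which is 0, 2.36, 11.1, 0 and 7.86 CPM. Isoproterenol libraries held 401, 531, 1423, 460 and 241 CPM, from 108, 68, 151, 151 and 124 reads. The libraries of caloric restriction plus isoproterenol held 476, 189, 941, 228 and 679 CPM. The fragment was thus close to the limit of detection in control and present at 63 to 209 reads in each of the 10 treated libraries.

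For tRF-His-GTG-043 the log2 fold change was 7.29 (SE 0.67, limma adjusted p = 6.255e-12) in isoproterenol and 7.02 (SE 0.67, limma adjusted p = 2.349e-11) in caloric restriction plus isoproterenol, higher in 5 of 5 libraries each time. Pooled over the libraries of a group, the ratio to control was 158 for isoproterenol (95% counting interval 76.3 to 395) and 159 for the third group (76.7 to 397). With median-of-ratios scaling the log2 fold changes were 6.67 and 6.02, again the highest among the 708 tsRNAs tested. The rank depended on the tool: in isoproterenol the fragment was the third highest by edgeR (7.29), with TMM scaling (5.88) and by DESeq2 (6.07), and in the third group it was the second highest by edgeR (7.01) and with TMM scaling (5.44) and the highest by DESeq2 (5.56).

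tRF-His-GTG-042, the preceding serial number, was likewise near 0 in control and high in both treated groups. Its control libraries held 10.98, 2.36, 29.7, 1.77 and 7.86 CPM and its isoproterenol libraries 342, 727, 1235, 414 and 149.6 CPM. The libraries of caloric restriction plus isoproterenol held 689.8, 287, 1275, 289.5 and 1016 CPM. Control and treated libraries did not overlap. The log2 fold change was 5.85 (SE 0.64, limma adjusted p = 9.076e-10) in isoproterenol and 6.24 (SE 0.64, limma adjusted p = 1.751e-10) in the third group. Together, tRF-His-GTG-042 and tRF-His-GTG-043 made up 0.777% ± 0.765 of the histidine fragments in control, 8.27% ± 4.33 in isoproterenol and 11.2% ± 5.50 in caloric restriction plus isoproterenol (SD, n = 5 each).

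tRF-His-GTG-041 was at a lower level. A single read was found in the 5 control libraries, in replicate 4. In isoproterenol the libraries held 37.1, 62.5, 169.7, 18.3 and 1.94 CPM, and those of the third group 67.1, 22.6, 81.1, 43.4 and 89.9 CPM. All treated libraries were above all control libraries, although the values of isoproterenol replicate 5 and control replicate 4 rest on a single read each. The pooled ratio to control was 79.1 in isoproterenol (95% counting interval 13.5 to 3196) and 135 in caloric restriction plus isoproterenol (23.5 to 5418). The log2 fold changes were 4.71 and 5.62, with limma adjusted p of 7.748e-06 and 3.958e-07.

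Members 037, 044, 047 and 048 had no read in any control library. tRF-His-GTG-037 held 26.0, 46.9, 66.0, 12.2 and 7.77 CPM in isoproterenol and 30.5, 15.1, 54.0, 10.9 and 22.5 CPM in the third group. Each of the 10 treated libraries thus held it, at between 3 and 12 reads. Against a floor of 3 reads over the control group, this was at least 17.2-fold higher in isoproterenol and at least 20.0-fold higher in caloric restriction plus isoproterenol.

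tRF-His-GTG-048 held 18.6, 7.81, 47.1, 24.3 and 13.6 CPM in the isoproterenol libraries and 6.10, 0, 18.0, 3.62 and 18.0 CPM in those of the third group. This was at least 15.9-fold and at least 6.44-fold higher than the same floor. In the third group tRF-His-GTG-048 passed by limma (2.71, adjusted p = 0.00754) and not by DESeq2 (2.62, adjusted p = 0.0716). tRF-His-GTG-047 had 12 reads in isoproterenol and 6 in the third group, and tRF-His-GTG-044 had 9 and 10, so both rest on few reads. The call of tRF-His-GTG-044 in isoproterenol was lost without isoproterenol replicate 1, 3 or 4, and its call in the third group without replicate 3 of that group. tRF-His-GTG-047 passed in isoproterenol (limma adjusted p = 0.00245, log2 fold change 3.42, higher in 5 of 5 libraries) and not in the third group (1.65, limma adjusted p = 0.118).

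tRF-His-GTG-014 was the most abundant member, at rank 8 of the 714 tsRNAs by mean CPM, and supplied 54.4% of the summed histidine signal. Its control libraries held 937, 867, 920.2, 298 and 904 CPM. Isoproterenol libraries held 4555, 4102, 18410.3, 7806 and 13417 CPM, and those of caloric restriction plus isoproterenol 4908, 3119, 4377, 5334 and 5095 CPM. Every treated library lay above control, and the third group was narrower and overlapped the lower isoproterenol libraries.

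For tRF-His-GTG-014 the log2 fold change in isoproterenol was 3.49 (SE 0.50, limma adjusted p = 2.641e-07, higher in 5 of 5 libraries), and 2.24 after scaling by the median of ratios. Caloric restriction plus isoproterenol differed from control by 2.63 (SE 0.50, limma adjusted p = 4.791e-05). That call depended on the scaling: with the median of ratios the difference was 1.00 (limma adjusted p = 0.0889). The treated groups differed by -0.86 (SE 0.50, limma adjusted p = 0.369).

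tRF-His-GTG-015 was the second member by mean CPM and supplied 14.4% of the summed signal. Its control libraries held 447, 203, 315, 116 and 401 CPM. In isoproterenol the libraries held 1210.1, 1172, 3243, 1862 and 2365 CPM, and those of the third group 1233, 1232, 1302, 1139.9 and 3692 CPM. Within the third group, 4 libraries lay close together and replicate 5 far above them. The log2 fold change was 2.77 (SE 0.52, limma adjusted p = 2.653e-05) in isoproterenol and 2.52 (SE 0.52, limma adjusted p = 0.000132) in the third group, where median-of-ratios scaling gave 0.90 and ended the call (limma adjusted p = 0.108).

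The neighbouring members 012, 013 and 016 rose in isoproterenol as well, by 2.66, 2.86 and 3.65 on the log2 scale. tRF-His-GTG-013 ranged from 63.8 to 105 CPM in control, from 195 to 1716 in isoproterenol and from 181 to 315 in the third group. Its rise in the third group, 1.53 (limma adjusted p = 0.0178), turned to -0.087 with median-of-ratios scaling. tRF-His-GTG-016 ranged from 7.09 to 47.6 CPM in control, from 109 to 538 in isoproterenol and from 54.0 to 167 in the third group. tRF-His-GTG-012 held 3.66, 11.8, 18.6, 7.09 and 7.86 CPM in control, 18.6, 54.7, 132, 57.8 and 97.2 in isoproterenol, and 12.2, 5.03, 18.0, 25.3 and 31.5 in the third group. Its lowest isoproterenol library stood just above the highest control, and its call there was lost with median-of-ratios scaling (1.49, limma adjusted p = 0.072). In the third group it overlapped control (0.79, limma adjusted p = 0.333).

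tRF-His-GTG-052 and tRF-His-GTG-053 were nearly equal in abundance, at ranks 94 and 95 of 714. tRF-His-GTG-052 held 69.6, 58.9, 37.1, 18.6 and 57.7 CPM in control. It held 230.1, 524, 820.1, 186 and 77.7 CPM in isoproterenol and 1068, 324, 703, 344 and 1695 CPM in caloric restriction plus isoproterenol. Control was below all treated libraries, and the lowest isoproterenol library, replicate 5, stood only just above the highest control. The log2 fold change was 2.59 (SE 0.60, limma adjusted p = 0.000501) in isoproterenol and 3.91 (SE 0.60, limma adjusted p = 1.378e-06) in the third group. With the listed tsRNAs scaled to the same total, the call in isoproterenol was lost (1.51, limma adjusted p = 0.0749).

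tRF-His-GTG-053 held 47.6, 51.9, 55.7, 9.74 and 41.9 CPM in control, 334, 703, 1018, 243 and 113 CPM in isoproterenol, and 812, 284, 865, 416 and 1079 CPM in the third group. Treated and control libraries did not overlap. Its log2 fold changes were 3.32 and 4.07, both past the threshold by limma (adjusted p = 1.635e-05 and 5.290e-07). In the same run, tRF-His-GTG-054 rose by 3.61 and 3.88. By limma over all libraries, tRF-His-GTG-051 passed in the third group (2.90), where its call was lost with median-of-ratios scaling, and not in isoproterenol (1.13, limma adjusted p = 0.230). In isoproterenol it passed by edgeR (1.79, adjusted p = 0.0423) and by limma without replicate 5 (2.14, adjusted p = 0.00899), a library with no read of it.

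Members 020 to 023 all had positive differences in isoproterenol by limma on CPM, and 021 turned to -0.70 with median-of-ratios scaling. tRF-His-GTG-020 went from 1.95 ± 1.86 CPM in control to 26.7 ± 13.2 in isoproterenol and 70.7 ± 24.8 in the third group (SD, n = 5 each), with log2 fold changes of 3.42 and 4.84 that passed by limma. tRF-His-GTG-022 and tRF-His-GTG-023 rose in isoproterenol by 1.99 and 1.86, and both calls were lost with median-of-ratios scaling and without control replicate 4, that of 023 also without isoproterenol replicate 2 or 3. tRF-His-GTG-021 did not pass in isoproterenol (0.52, limma adjusted p = 0.502). In the third group all 4 passed by limma, with log2 fold changes between 2.03 and 4.84. Members 004 and 038, both at low level, rose in isoproterenol by 2.75 and 3.87 and in the third group by 3.59 and 4.02. The call of 004 in isoproterenol was lost by DESeq2 (1.87, adjusted p = 0.081).

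Against this pattern, 3 members fell in isoproterenol. tRF-His-GTG-031 had the second lowest log2 fold change of the 707 tsRNAs. Its control libraries held 80.5, 82.5, 100.2, 62.0 and 55.0 CPM, from 22, 35, 27, 70 and 21 reads. The isoproterenol libraries held 0, 0, 0, 3.04 and 5.83 CPM, and those of the third group 0, 12.6, 0, 14.5 and 18.0 CPM. No treated library reached the lowest control. The log2 fold change was -5.28 (SE 0.86, limma adjusted p = 3.718e-06, lower in 5 of 5 libraries) in isoproterenol and -3.84 (SE 0.86, limma adjusted p = 0.000339, lower in 5 of 5 libraries) in the third group. Pooled reads were 4 against 175 in isoproterenol, 23.8-fold lower (95% counting interval 9.12 to 88.3).

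tRF-His-GTG-028 held 73.2, 129.7, 119, 172 and 91.7 CPM in control, 0, 39.1, 0, 9.13 and 11.7 in isoproterenol and 18.3, 50.3, 9.01, 32.6 and 45.0 in the third group. The control libraries again lay above all the others. The log2 fold change was -4.36 (SE 0.78, limma adjusted p = 1.451e-05) in isoproterenol. In caloric restriction plus isoproterenol it was -2.05 (SE 0.78, limma adjusted p = 0.0221), a call lost without control replicate 4 or without replicate 3 of the third group, at an adjusted p of up to 0.0783.

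tRF-His-GTG-032 held 32.9, 35.4, 51.9, 23.0 and 21.0 CPM in control, 7.42, 23.4, 0, 3.04 and 0 in isoproterenol and 18.3, 17.6, 9.01, 18.1 and 27.0 in the third group. Control and isoproterenol touched only through isoproterenol replicate 2, which stood above 2 control libraries. It fell in isoproterenol by 3.07 on the log2 scale (SE 0.79, limma adjusted p = 0.00139) and did not pass in the third group (-0.83, limma adjusted p = 0.359), where it passed with median-of-ratios scaling (-2.38, limma adjusted p = 0.0138).

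Unlike its neighbours 012 to 016, tRF-His-GTG-017 was not called higher in isoproterenol by limma. Its control libraries held 84.2, 129.7, 55.7, 127 and 83.9 CPM and the libraries of the third group 6.10, 12.6, 18.0, 25.3 and 18.0 CPM. Isoproterenol libraries held 22.3, 54.7, 0, 12.2 and 678 CPM, so that 4 lay below control and replicate 5 far above it, with 349 of the 366 isoproterenol reads. Caloric restriction plus isoproterenol was lower than control by limma (log2 fold change -2.57, SE 0.87, adjusted p = 0.0112, lower in 5 of 5 libraries), a call lost with the log2 library total as a covariate (-1.40, limma adjusted p = 0.218). Isoproterenol did not pass (-1.84, SE 0.87, limma adjusted p = 0.0745), and passed without replicate 5 (-3.02, limma adjusted p = 0.00175). By edgeR on the recovered reads the difference was 0.72 (adjusted p = 0.343).

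The opposite courses could be read within single libraries, where the library total cancels. tRF-His-GTG-031 outnumbered tRF-His-GTG-043 in each of the 5 control libraries, by 22 reads to 0, 35 to 1, 27 to 3, 70 to 0 and 21 to 3. In isoproterenol libraries the reads of 043 and 031 were 108 and 0, 68 and 0, 151 and 0, 151 and 1, and 124 and 3. In the third group they were 78 and 0, 75 and 5, 209 and 0, 63 and 4, and 151 and 4. The order was thus reversed in all 10 treated libraries. The pair was chosen for its fold changes, so this is a description. The 4 members lower in any comparison (017, 028, 031 and 032) made up 21.1% ± 11.7 of the histidine fragments in control, 1.12% ± 1.52 in isoproterenol and 0.794% ± 0.479 in caloric restriction plus isoproterenol (SD, n = 5 each). They were chosen for falls in these same libraries, so their lower share is a description. In CPM their sum was 696 in isoproterenol replicate 5, above the 252 to 384 of the control libraries.

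The comparison of caloric restriction plus isoproterenol with control shares its control libraries with the first. Here 20 members rose, against 47.7% of all tsRNAs, and 3 fell, against 10.7% of all. Of those that rose, 037, 041, 044 and 048 had passed the filter only through treated libraries. The median log2 fold change was 2.69 over the members and 1.60 over all. With median-of-ratios scaling, where the median of all tsRNAs was 0.24, the median of the members was 1.52, with 14 higher (15.1% of all) and 4 lower (20.6% of all). The calls lost were 013, 014, 015, 016, 021 and 051, so the fragments that led by abundance were among them, while 042, 043, 052 and 053 passed on both scalings. With the listed tsRNAs scaled to the same total, 17 were higher (26.4% of all) and 3 lower (14.3% of all), and DESeq2 called 14 higher (15.1% of all) and 4 lower (22.5% of all). The first of these lost the rises of 013, 016 and 021, and DESeq2 those of 013, 016, 021, 044, 048 and 051. edgeR called 16 of its 19 tested members higher (61.1% of its tsRNAs) and 3 lower (14.1%), and with TMM scaling 10 higher (22.2%) and 3 lower (25.4%). The groups did not overlap in 18 members that were higher (31.1% of all tsRNAs) and 3 that were lower (9.19% of all). By limma on CPM, 18 members rose in both treated groups (29.7% of all tsRNAs did) and 2, 028 and 031, fell in both (9.19% of all), against the same control libraries.

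The remaining comparison asked whether caloric restriction before isoproterenol changed the fragments. By limma 0 of the 26 members passed in either direction, as did 0.0% of the tsRNAs tested. At an unadjusted limma p under 0.05 there were 5 members higher and 3 lower, and 78 and 38 of all 707 tsRNAs tested. The median log2 fold change was 0.33 over the members and 0.44 over all tsRNAs. edgeR on the recovered reads called 017 lower (-3.27, adjusted p = 0.0414, 0.288% of the 347 tsRNAs it tested), and without isoproterenol replicate 5 the difference was -0.41 (adjusted p = 0.841). DESeq2 called 021 higher (0.84% of all tsRNAs) and 012, 013, 014, 016 and 017 lower (3.92% of all), and without isoproterenol replicate 5 it called 0 members. With the log2 library total as a covariate, limma called 021 and 052 higher (5.23% of all) and 0 lower (0.849% of all).

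Sorted by serial number, the members leaned in different directions between the treated groups without passing the test. Positive differences were common, in 468 of the 707 tsRNAs tested and in 16 of the 26 members. All 6 members from 012 to 017 had a lower mean in caloric restriction plus isoproterenol on the log2 scale, by between 0.26 and 1.87, with 015 changing sign when the listed tsRNAs were scaled to the same total and 017 turning to 0.45 without isoproterenol replicate 5. They made up 81.0% ± 11.8 of the histidine fragments in isoproterenol and 66.1% ± 9.31 in the third group. All 4 members from 020 to 023 had positive differences, between 0.81 and 1.52, and their share was 1.84% ± 1.11 and 4.68% ± 0.527. The 4 members from 051 to 054 also had positive differences, between 0.27 and 1.77, and their share was 7.42% ± 5.65 and 15.6% ± 4.87 (SD, n = 5 each). Member 054 changed sign under median-of-ratios scaling, with TMM, by DESeq2 and without isoproterenol replicate 5. Of the other runs, 031 to 032 leaned up, 047 to 048 leaned down, and 037 to 038 and 041 to 044 were mixed.

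Single members with the smallest p in this comparison were 028, 032 and 012. The differences were 2.31 (SE 0.78, limma adjusted p = 0.204) for tRF-His-GTG-028, 2.23 (SE 0.79, limma adjusted p = 0.204) for tRF-His-GTG-032 and -1.87 (SE 0.70, limma adjusted p = 0.228) for tRF-His-GTG-012. In tRF-His-GTG-021 the treated groups did not overlap, the one such member that was higher (0.99% of all tsRNAs), and in 0 members did caloric restriction lie wholly below (0.707% of all). Its isoproterenol libraries held 89.1, 109, 104, 54.8 and 11.7 CPM and those of the third group 219.8, 116, 171, 156 and 202 CPM. The difference was 1.52 (SE 0.63, limma adjusted p = 0.243).

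Read ratios within libraries showed how the make-up of the histidine fragments varied among rats. The reads of tRF-His-GTG-014 for each read of tRF-His-GTG-052 ranged from 13.5 to 24.8 in control, from 7.84 to 173 in isoproterenol and from 3.01 to 15.5 in caloric restriction plus isoproterenol. The ratio of tRF-His-GTG-013 to tRF-His-GTG-053 ranged from 1.36 to 6.55 in control, from 0.278 to 8.71 in isoproterenol and from 0.242 to 0.756 in the third group. Isoproterenol libraries spanned more than the range of control in both ratios, with replicate 5 at the top of each. The third group lay wholly below control in the second ratio and overlapped it in the first.

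The order of the libraries within a group was shared by many members. Isoproterenol replicate 3, with the smallest total of 106082 reads, was the highest of its group in 19 of the 26 members. Isoproterenol replicate 5, with the largest total of its group (514565), was the lowest in 13. Control replicate 4, with the largest total of all (1128887), was the lowest control library in 12 members, and replicate 2 of the third group, with the largest total there (397574), was the lowest in 15. Control replicate 3, with the smallest control total (269508), was the highest in 9. Other libraries did not follow the order of totals. Replicate 1 of the third group, with the smallest total there (163818), was the highest in 2 members. Isoproterenol replicate 2 (127991) was the highest in 4 and the lowest in 6. The same counts over all tsRNAs are not given here. The part of the library total in these results was not tested beyond a fit with the log2 total as a covariate, in which tRF-His-GTG-043 differed from control by 6.42 in isoproterenol and tRF-His-GTG-031 by -4.51 (limma adjusted p = 1.784e-07 and 0.000597). In that fit 18 members were higher (23.2% of all) and 3 lower (14.3% of all) in isoproterenol than in control, and in the third group 20 were higher (36.9% of all) and 1 lower (10.9% of all). The calls lost were 022 and 023 in isoproterenol, and in the third group tRF-His-GTG-017 (-1.40, limma adjusted p = 0.218) and tRF-His-GTG-028 (-1.63, limma adjusted p = 0.114).

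The histidine tiRNAs were a separate class in the table, with 4 members. tiRNA-His-GTG-001 held 158 ± 109 CPM in control, 1239 ± 512 in isoproterenol and 427 ± 98.4 in caloric restriction plus isoproterenol (SD, n = 5 each). It rose in isoproterenol (log2 fold change 3.27, limma adjusted p = 5.938e-06, higher in 5 of 5 libraries; 2.03 with median-of-ratios scaling). The third group lay wholly below isoproterenol, as in 0.707% of all tsRNAs, and the difference of -1.48 did not pass by limma (adjusted p = 0.226). DESeq2 called it lower (-2.16, adjusted p = 0.00424), also without isoproterenol replicate 5 (-1.58, adjusted p = 0.0295). The 3 other tiRNAs did not pass in isoproterenol on CPM, and over the 4 the median log2 fold change was -0.05, against 2.82 over the 26 tRFs. With median-of-ratios scaling tiRNA-His-GTG-003 (-2.46, limma adjusted p = 0.0291) and tiRNA-His-GTG-004 (-2.09, limma adjusted p = 0.0298) passed as lower, from 2 and 3 isoproterenol reads, and the median was -1.18, against 2.13 over the tRFs. By edgeR, which tested 2 of the 4, the median in isoproterenol was 1.85, against 3.26 over 19 tRFs. In the third group against control the median by limma on CPM was 1.55, against 2.69 over the tRFs. There tiRNA-His-GTG-001 (1.79, limma adjusted p = 0.00558) and tiRNA-His-GTG-005 (2.11, limma adjusted p = 0.0059) passed as higher (47.7% of all tsRNAs did). Neither passed with median-of-ratios scaling (limma adjusted p = 0.784 and 0.392). The difference between the classes was not tested.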

How the data were processed

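The authors deposited 1 table of CPM values for 714 tsRNAs in 15 libraries. The submitters' processing notes name cutadapt and edgeR, without roles or versions. Aligner, tRNA reference and build were not given in the sources used here. Per the labels' protocols, RNA was treated to remove modifications that hinder library making, and a gel cut selected inserts between 14 and 40 nt long. No fragment sequence was used.

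Dividing the deposited CPM by its smallest step gave whole reads for 100% of values (tolerance 0.001 reads), and so the library totals. Whether reads were capped or collapsed before counting is not given, so counting intervals cover counting error only. The main test was limma 3.58.1 (eBayes with trend, R 4.3.3) on log2(CPM + 1), with 15 libraries, 3 groups and no covariate, two-sided, over the 707 tsRNAs that reached 1 CPM in 5 or more libraries. The pseudocount and libraries at 0 shape the fold changes of low members. edgeR 4.0.16 on the recovered reads, over 347 tsRNAs, called 236 for isoproterenol against control, 1 between the treated groups and 261 for the third group against control. DESeq2 1.42.0 was a further alternative. The main limma fit and edgeR without TMM scaling were tested on simulated reads, for isoproterenol against control only. The simulation had a fixed spread and no overall shift of the listed tsRNAs. The other fits were not tested in this way. p-values measure the spread between libraries, 1 rat each by the labels. Replicates of a group differed by more than sampling noise.

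Members were taken by name. Values in every library are given for the 5 members with the highest mean, the 5 largest rises and up to 5 falls called for isoproterenol against control, the 3 with the smallest p between the treated groups and every member called lower; tRF-His-GTG-021 was added after its values were seen. The members, lists and tests were chosen with earlier results of these data known. Runs of serial numbers and read ratios were described after the values were seen. A ratio against 0 reads uses a floor of 3 reads over the group.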

Additional observations from a re-analysis of the deposited data

Results flagged for a closer look

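In 8 of the 83 sets of 5 libraries examined, 1 library stood apart from the other 4 (gap over range above 0.71). A chance rate of about 1 set in 20 holds for independent normal values. These sets share libraries and some hold values of 0, so that rate does not apply. Control replicate 4 held 297.6 CPM of tRF-His-GTG-014, where the others held 867 to 937, and 931.0 CPM summed over the histidine fragments, where the others held 1747 to 2061. In the same library tRF-His-GTG-041 was at 0.886 CPM, a single read, with 0 in the other controls. Isoproterenol replicate 5 held 678.2 CPM of tRF-His-GTG-017 against 0 to 54.7 in the rest of its group. Isoproterenol replicate 3 held 1423 CPM of tRF-His-GTG-043 against 241 to 531, and 37.7 CPM of tRF-His-GTG-047 against 3.89 to 9.13. In caloric restriction plus isoproterenol, replicate 5 held 3692 CPM of tRF-His-GTG-015 against 1139.9 to 1302, and replicate 3 held 18.0 CPM of tRF-His-GTG-047 against 0 to 3.62.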

How the results depend on the processing

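Leaving out 1 library at a time gave 18 to 21 members higher and 3 to 4 lower in isoproterenol against control, 19 to 20 and 2 to 3 in caloric restriction plus isoproterenol against control, and 0 between the treated groups. The shares of all tsRNAs in these fits are not given here, so the counts describe only how stable the calls were. edgeR with TMM scaling, which tested 19 members, called 12 and 10 higher against control (21.3% and 22.2% of its tsRNAs). Between the treated groups DESeq2 called 1 higher (0.84% of all tsRNAs) and 5 lower (3.92% of all), and edgeR 1 lower (0.288% of its tsRNAs). The fit with the library total, chosen after seeing the data, called 2 higher there (5.23% of all). In the third group against control that fit left 1 lower (10.9% of all). The cause was not tested. The summed log2 ratio to control was 2.19 (share of listed reads) and 1.96 (median of ratios) in isoproterenol, and 1.92 and 0.93 in the third group. tRF-His-GTG-013 in the third group against control turned to -0.087 with median-of-ratios scaling, -0.24 with TMM and -0.20 with DESeq2 (-0.23 without isoproterenol replicate 5, chosen after seeing the data). Replicate numbers did not pair the libraries (correlation of deviations from -0.12 to 0.25 over 15 pairs, 1 above 0.1). With the replicate block, 20 members were higher and 4 lower in isoproterenol, tRF-His-GTG-017 being added (-1.84, limma adjusted p = 0.0287), and 20 and 3 in the third group. The shares of all tsRNAs with the block are not given here. Depth limits members 037, 044, 047 and 048, with 0 control reads and at most 12 reads in any library.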
